A study of Mus musculus with 12 samples.

Results

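The genes described here mark B cells and plasma cells in mouse thymus. They were 33 genes chosen by name: components of the B cell antigen receptor and its signalling, other B cell surface proteins, transcription factors of the lineage, receptors for survival and homing signals, and genes of antibody secretion. Of these, 31 had a probe set assigned to that gene alone, out of 18193 such genes on the array, and each was read from its probe set with the highest mean over the 12 arrays. Cd38 and Lyn were not analysed here. No filter on low values was used, so all 31 were tested. The mean log2 value was at least 5 for 20 of them and under 5 for 11: Vpreb3, Blk, Btk, Cr2, Fcer2a, Fcrla, Ebf1, Pax5, Cxcr5, Tnfrsf13c and Prdm1.

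Thymus RNA came from mice aged 7 to 8 weeks, with 3 biological replicates, per the series' design text, in each of 4 groups. XX mice and XY- mice were labelled female, and XXsry mice and XY-sry mice were labelled male. The names are those of a mouse model in which the Y chromosome has lost the testis-determining gene Sry, which is supplied by a transgene instead, so that gonadal sex and sex chromosomes are inherited apart. Animals with Sry therefore have testes, and effects of Sry itself and of the gonads cannot be told apart in these groups. XX and XY- differ both in the number of X chromosomes and in the presence of a Y, and these cannot be told apart either. The strain and the transgene's promoter and copy number are not given in the sources used here.

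B cells are a small resident population of the thymus, found mainly in the medulla, where they present antigen to developing T cells and take part in their selection. Some are made in the thymus from local progenitors and others enter from the blood, and part of the population matures into plasma cells that secrete antibody. A B cell senses antigen through surface immunoglobulin joined to the signalling chains Cd79a and Cd79b; Ebf1 and Pax5 set up the lineage, and Irf4, Prdm1 and Xbp1 lead the change to a secreting plasma cell.

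The arrays matched their labels. The Sry probe set read 6.74 to 7.20 on the log2 scale in the 6 arrays labelled with Sry and 5.23 to 5.65 in the 6 without it. Xist, the RNA that silences one X chromosome, read 11.10 to 11.63 in XX and XXsry and 3.41 to 4.19 in XY- and XY-sry, and the Y-linked Eif2s3y read 1.77 to 2.28 and 7.14 to 8.17. Array medians lay between 4.02 and 4.10. Values in the table ran from 1.67 to 13.31. Of the defining lineage factors, Ebf1 read 3.37 to 3.74 and Pax5 3.13 to 3.52; the files carry no detection call, so whether they were detected cannot be said. Among the arrays with Sry, XXsry replicate 1 stood apart: it was above the median of the 12 arrays for 25 of the 31 genes, against 3 to 12 in the other 5. Among the arrays without Sry, XY- replicate 2 stood apart, above the median for 10 genes, against 21 to 25 in the other 5. Results that rest on XXsry replicate 1 are given with and without it. Both arrays were picked from these same genes, so values without them are descriptions and add no support.

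Thymus with Sry had lower levels of 6 of the 31 genes, averaged over XX and XY-, and none was called higher in the main fit. The 6 were Mzb1 and Jchain, of antibody secretion; Pou2af1 and Irf4, transcription regulators of B cells and plasma cells; Ighm, the IgM heavy chain; and Ms4a1, which encodes the B cell surface protein CD20. Mzb1 was at 0.479 times and Pou2af1 at 0.575 times the level without Sry, and the other 4 at 0.666 to 0.716 times. The call rule was an adjusted p under 0.05 in limma, a linear model fitted to all 45037 probe sets with Benjamini-Hochberg adjustment over them. Under that rule 1.54% of all probe sets were called in either direction, 2.68% of those with a mean of at least 5, and 1.21% of the latter were called lower. The difference was negative for 26 genes and positive for 5, with a median of -0.165 on the log2 scale over the 31 and 0.005 over all probe sets. The genes were chosen with earlier results of these data known, so setting them beside all probe sets is a description. In a bulk sample, fewer cells of a type and less RNA per cell cannot be told apart.

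For the 25 genes that were not called, an adjusted p above the threshold does not show equal levels. The 95% interval of the Sry difference lay wholly within 0.5 of 0 on the log2 scale for 22 of them. It lay below 0 for 16 of the 31 genes and above 0 for 2, Ly6d and Ralgps2. When only the 17925 probe sets with a mean of at least 5 were tested, the 6 lower genes were called again and these 2 were called higher, Ly6d with an adjusted p of 0.0364 and Ralgps2 with 0.0492. Both were also called higher at a mean of at least 6 (0.0301 and 0.0367). Ly6d was called higher with array weights (0.0411) and with 1 probe set tested per gene (0.0462) as well.

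**Figure D1:**
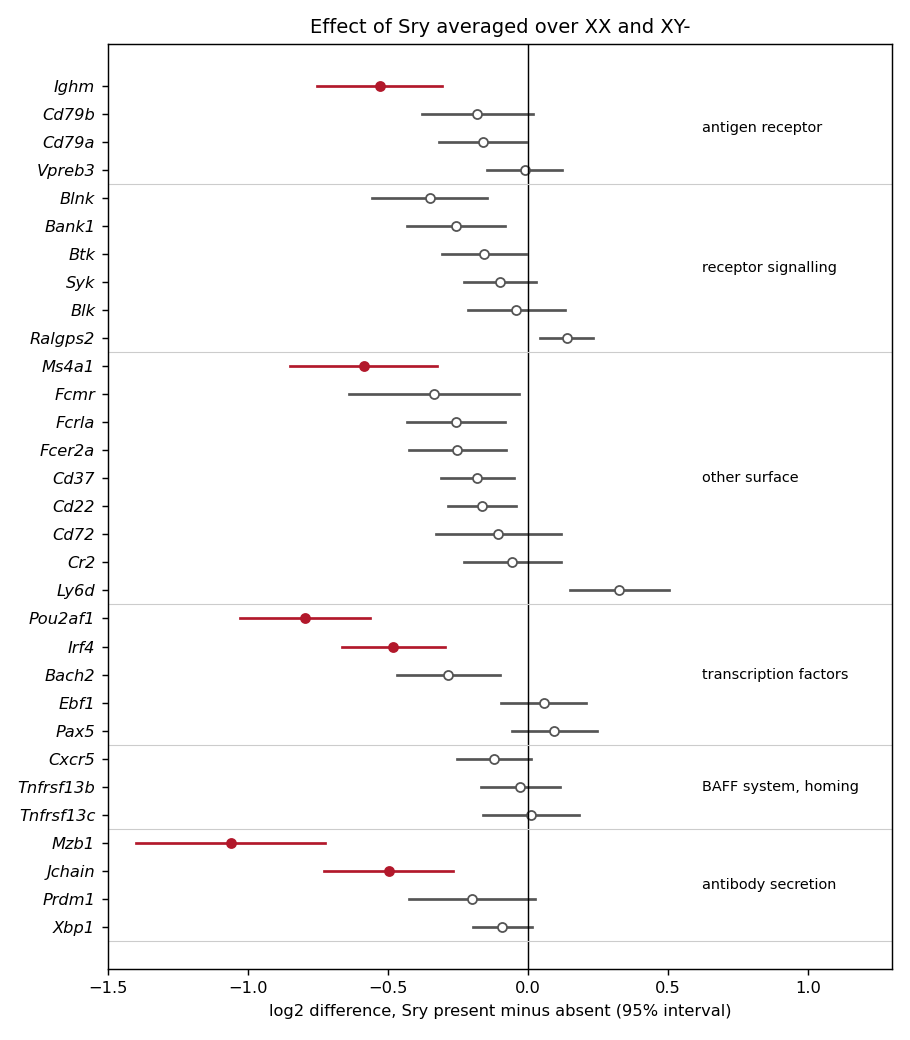
Each point is the log2 difference of 1 gene between arrays with Sry and arrays without, averaged over XX and XY- (horizontal axis), with its 95% interval as a line; genes are grouped by role, and filled red points passed an adjusted p of 0.05 in limma. The 6 red points lie between -1.06 and -0.48, and most of the open points lie just left of 0.

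Pou2af1 encodes the coactivator that joins POU factors on the octamer motif of immunoglobulin and other B cell promoters, so the start regions of the genes were searched for that motif. RefSeq windows of build GRCm38.p6, 250 bases before to 50 after a start site, were matched for 24 of the 31 genes (29 windows). The octamer ATGCAAAT, searched on both strands, was present in the windows of 2 genes, Blnk and Vpreb3, and in 1.74% of all 32851 windows. Its first base lay at position -130 in Blnk and -45 in Vpreb3, counted from the start site, in both cases as ATTTGCAT on the gene's strand. Neither gene was called for Sry, with log2 differences of -0.35 (Blnk) and -0.01 (Vpreb3). Of the 6 genes that fell, Pou2af1, Jchain and Irf4 had a window, and none of the 3 held the octamer. The 250 bases before the start site are printed for these 3, as the genes that fell, and for the 2 with the motif, 5′ to 3′ on the gene's strand, with octamer matches in capitals.
Pou2af1, chr9:51213440-51213689, + strand: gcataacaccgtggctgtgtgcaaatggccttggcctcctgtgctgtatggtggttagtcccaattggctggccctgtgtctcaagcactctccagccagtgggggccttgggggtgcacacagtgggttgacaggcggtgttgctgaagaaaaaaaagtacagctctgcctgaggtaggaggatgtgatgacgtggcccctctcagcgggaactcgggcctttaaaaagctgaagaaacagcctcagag
Jchain, chr5:88527898-88528147, - strand: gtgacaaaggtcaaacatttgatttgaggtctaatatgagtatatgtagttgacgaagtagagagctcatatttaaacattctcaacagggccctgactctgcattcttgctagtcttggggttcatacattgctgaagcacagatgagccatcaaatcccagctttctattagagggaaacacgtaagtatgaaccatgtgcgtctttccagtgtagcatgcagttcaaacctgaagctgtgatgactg
Irf4, chr13:30748983-30749232, + strand: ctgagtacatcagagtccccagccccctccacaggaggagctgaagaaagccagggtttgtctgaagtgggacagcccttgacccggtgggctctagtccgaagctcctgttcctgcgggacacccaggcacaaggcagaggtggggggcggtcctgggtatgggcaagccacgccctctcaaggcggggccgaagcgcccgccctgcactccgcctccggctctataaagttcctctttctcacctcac
Blnk, chr19:40994222-40994471, - strand: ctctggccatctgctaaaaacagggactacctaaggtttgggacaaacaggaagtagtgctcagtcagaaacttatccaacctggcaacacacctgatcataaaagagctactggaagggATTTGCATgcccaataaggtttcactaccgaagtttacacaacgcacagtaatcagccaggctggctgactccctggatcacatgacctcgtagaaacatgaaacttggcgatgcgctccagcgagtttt
Vpreb3, chr10:75948050-75948299, + strand: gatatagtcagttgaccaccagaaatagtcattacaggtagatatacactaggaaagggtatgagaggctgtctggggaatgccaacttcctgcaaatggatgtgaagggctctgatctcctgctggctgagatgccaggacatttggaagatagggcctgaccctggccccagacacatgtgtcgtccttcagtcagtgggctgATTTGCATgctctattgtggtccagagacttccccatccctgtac
The printed stretches of Pou2af1, Jchain and Irf4 have no capitals, since these letters are not in them. Other motifs were searched in the same windows. The early B cell factor motif TCCCNNGGG was present for 1 gene, Cd22, and in 6.56% of all windows. The PU.1 motif GAGGAAGT was present for 2 genes, Cd37 and Cd72, and in 3.2% of all windows. These matches describe letters in a window and are not evidence of binding.

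Among the transcription regulators, Pou2af1 and Irf4 fell with Sry. Pou2af1 read 6.51, 6.75 and 6.55 in XX, 6.04, 5.52 and 5.65 in XXsry, 6.32, 5.99 and 6.31 in XY-, and 5.64, 5.17 and 5.62 in XY-sry. Within each complement every array with Sry was below every array without it; only XXsry replicate 1 kept the 2 sets of 6 from separating, being above XY- replicate 2. The averaged difference was -0.80 (SE 0.11, adjusted p = 0.00273), the smallest p of the 31 genes. Irf4, which drives B cell activation and plasma cell formation and is also made by activated T cells, read 5.93, 5.61 and 5.76 in XX, 5.59, 5.21 and 5.11 in XXsry, 5.60, 5.51 and 5.76 in XY-, and 5.06, 5.21 and 5.10 in XY-sry. Here too XXsry replicate 1 lay among the arrays without Sry and the other 5 were below all of them, and the difference was -0.48 (SE 0.085, adjusted p = 0.0134). A second Irf4 probe set with a mean of 3.46 gave -0.04 (adjusted p = 0.772), and with the mean of both probe sets the adjusted p was 0.0588.

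Bach2, a repressor that holds B cells short of the plasma cell state and is also active in T cells, showed a different pattern. It read 7.84, 7.62 and 7.58 in XX, 7.78, 7.59 and 7.65 in XXsry, 7.50, 7.85 and 7.83 in XY-, and 7.24, 7.32 and 6.93 in XY-sry. Only the 3 XY-sry arrays stood below the rest, and the other 9 arrays overlapped. The averaged Sry difference was -0.285 (SE 0.085, adjusted p = 0.12). The lineage factors Ebf1 and Pax5 differed by 0.06 (95% interval -0.10 to 0.21) and 0.09 (-0.06 to 0.25), and neither passed the test.

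The genes of antibody secretion held the widest difference. Mzb1, an endoplasmic reticulum protein that helps assemble and secrete IgM, read 7.83, 8.18 and 8.27 in XX, 7.59, 6.38 and 7.04 in XXsry, 7.78, 7.51 and 7.68 in XY-, and 6.64, 6.55 and 6.68 in XY-sry. The 3 XY-sry arrays lay close together and below all arrays without Sry, while the XXsry arrays spread from the lowest of the 12 values up to the range of XY-. The averaged difference was -1.06 (SE 0.16, 95% interval -1.40 to -0.73, adjusted p = 0.00483). Without XXsry replicate 1 the difference was -1.21, and without XY- replicate 2 it was -1.10. Both are descriptions, since these arrays were picked from the same genes.

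Jchain, the joining chain of secreted IgM and IgA polymers, read 10.17, 10.46 and 10.65 in XX, 10.21, 9.83 and 10.02 in XXsry, 10.48, 10.04 and 10.35 in XY-, and 9.89, 9.75 and 9.46 in XY-sry. The XY-sry arrays were below the XY- arrays, and the XXsry arrays overlapped with XX at replicate 1. The averaged difference was -0.50 (SE 0.11, adjusted p = 0.0377). Xbp1, which expands the secretory apparatus, differed by -0.09 (95% interval -0.20 to 0.01) and Prdm1, the repressor that ends the B cell programme, by -0.20 (-0.42 to 0.02), and neither passed.

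Of 13 other plasma cell and secretory pathway genes, 3 fell and none rose, with a median of -0.13. Sdc1, the plasma cell surface proteoglycan CD138, ranged over 6.64 to 6.73 in XX, 6.34 to 6.58 in XXsry, 6.52 to 7.01 in XY- and 6.23 to 6.35 in XY-sry, a difference of -0.37 (SE 0.076, adjusted p = 0.031). Its ranges did not overlap within either complement. Txndc5, a protein disulfide isomerase family member of the endoplasmic reticulum, differed by -0.387 (SE 0.082, adjusted p = 0.0357), and Ell2, an elongation factor used in making secreted immunoglobulin mRNA, by -0.43 (SE 0.095, adjusted p = 0.0432). Within XY- mice Sdc1 was also called, at -0.48 (adjusted p = 0.033). Leaving out 1 array ended the averaged Sdc1 call except for XXsry replicate 1 and XY- replicates 2 and 3 (adjusted p up to 0.0851), the Txndc5 call except for XX replicate 1, XXsry replicate 1 and XY- replicate 2 (up to 0.0926), and the Ell2 call except for XXsry replicate 1 and XY- replicate 2 (up to 0.108). When the probe sets of each gene were averaged, Txndc5 was not called at -0.30 (adjusted p = 0.0669), nor Ell2 at -0.19 (adjusted p = 0.146). The Txndc5 call also ended with the replicate number as a block (adjusted p = 0.0511) and with the actin covariate described with the RNA quality values (0.112), and the Ell2 call when array medians were set equal (0.0564). The Sdc1 call in XY- ended without XX replicate 1, XY- replicate 1 or 3, or any XY-sry array (up to 0.12). It also ended when array medians were set equal (0.0529), with the actin covariate (0.126), and with the arrays of XY- and XY-sry alone (0.149).

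Of the antigen receptor genes, Ighm fell. It read 12.18, 12.78 and 12.71 in XX, 12.35, 11.92 and 11.88 in XXsry, 12.44, 12.38 and 12.39 in XY-, and 11.87, 11.78 and 11.90 in XY-sry. The XY- and XY-sry arrays formed 2 tight, separate sets, whereas XX replicate 1 and XXsry replicate 1 crossed. The averaged difference was -0.53 (SE 0.10, adjusted p = 0.0246). Ighm had 11 probe sets of its own; 4 were called lower, 1 of them the one used here, and the 11 ranged from -1.17 to 0.14, so the size of the Ighm difference depends on the probe set. Probe sets for immunoglobulin segments can also bind related sequences.

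Cd79a, a signalling chain of the receptor, read 5.24, 5.02 and 5.23 in XX, 5.28, 4.87 and 4.96 in XXsry, 5.15, 5.19 and 5.33 in XY-, and 5.04, 4.99 and 5.04 in XY-sry. The XX and XXsry values overlapped and the XY-sry values were all below XY-, with an averaged difference of -0.16 (95% interval -0.32 to -0.01, adjusted p = 0.307). Cd79b, its partner, differed by -0.18 (95% interval -0.38 to 0.02), and Vpreb3, a chaperone of the receptor's assembly, by -0.01 (-0.15 to 0.12). None of the 3 was called. Differences between genes, such as Ighm against the Cd79 chains, were not tested.

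None of the 6 signalling genes passed. Blnk, the adaptor downstream of the receptor, had the lowest estimate at -0.35 (95% interval -0.56 to -0.15, adjusted p = 0.0876), followed by Bank1, a scaffold of receptor signalling, at -0.26 (adjusted p = 0.143). The kinases Btk, Syk and Blk gave -0.16, -0.10 and -0.04. Ralgps2, a guanine nucleotide exchange factor for Ral, was the exception in sign at 0.14 (adjusted p = 0.155). Its values ran from 8.11 to 8.23 without Sry and from 8.23 to 8.42 with it, so the 2 sets touched at a single value, and its other 2 probe sets gave 0.008 each.

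Of the 9 other surface genes, 1 fell. Ms4a1 read 5.82, 5.88 and 5.32 in XX, 5.50, 4.72 and 5.07 in XXsry, 5.47, 5.60 and 5.45 in XY-, and 4.89, 4.85 and 4.99 in XY-sry. Every array with Sry except XXsry replicate 1 was below every array without it. The averaged difference was -0.59 (SE 0.12, adjusted p = 0.0329), and the second Ms4a1 probe set gave -0.465 (adjusted p = 0.0333).

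Fcmr, a receptor for IgM, gave -0.335 (adjusted p = 0.281) and a wide 95% interval, -0.64 to -0.03. Fcrla, an Fc receptor-like protein of B cells, and Fcer2a, the low-affinity IgE receptor CD23, gave -0.26 and -0.25. The tetraspanin Cd37, the inhibitory receptors Cd22 and Cd72, and the complement receptor Cr2 gave -0.18, -0.165, -0.11 and -0.06. Ly6d had the highest estimate of the 31. It is found on B cell progenitors and also on thymocytes, and read 9.51 to 9.67 in XX, 9.87 to 10.07 in XXsry, 9.29 to 9.64 in XY- and 9.60 to 9.99 in XY-sry, a difference of 0.325 (95% interval 0.15 to 0.50, adjusted p = 0.0699).

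**Figure D2:**
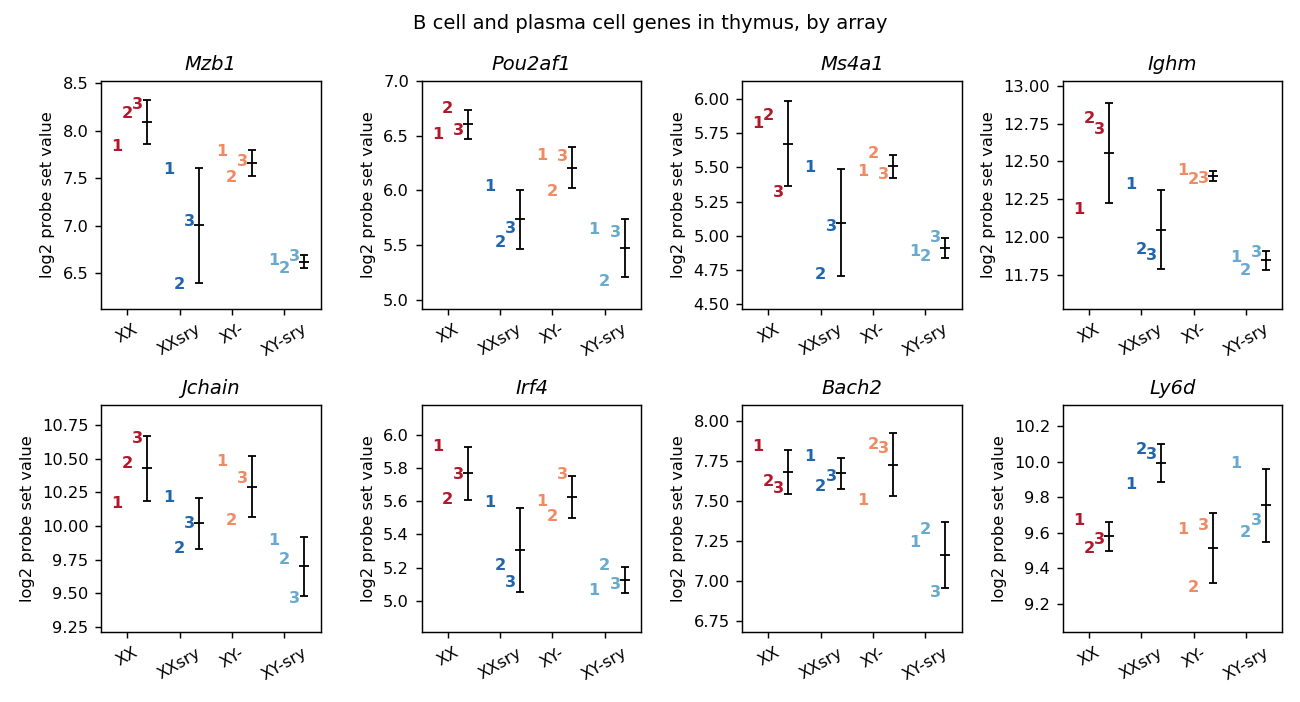
Log2 probe set values (vertical axes, scaled per gene) of 8 genes in the 4 groups; each digit is 1 array at its replicate number, and the black bar is the mean with the SD of 3 arrays. In 6 panels, from Mzb1 to Irf4, the XXsry array numbered 1 is the highest of its group; Bach2 is low in XY-sry alone, and Ly6d is higher in XXsry than in XX.

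The receptors for survival and homing signals showed no call for Sry. Tnfrsf13b and Tnfrsf13c, receptors for the B cell survival factor BAFF, differed by -0.03 (95% interval -0.17 to 0.11) and 0.01 (-0.16 to 0.18), and Cxcr5, the receptor that brings B cells to follicles, by -0.12 (-0.25 to 0.01). Of 6 measured ligand genes of BAFF, CXCL13 and B cell help, none was called, with a median of -0.08. The 2 smallest p belonged to the cytokine Il4, which differed by -0.30 (adjusted p = 0.0822), and to Tnfsf13b, which encodes BAFF, at -0.19 (adjusted p = 0.238); both had means under 5.

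Among 23 other measured B lineage genes, 1 fell with Sry and none rose, with a median of -0.105. It was Ccr6, a chemokine receptor of B cells that other lymphocytes and dendritic cells also carry, with an averaged difference of -0.58 (SE 0.10, adjusted p = 0.0135). Ccr6 read 5.24, 5.13 and 4.82 in XX, 5.04, 5.12 and 5.20 in XXsry, 5.39, 5.92 and 5.72 in XY-, and 4.54, 4.64 and 4.22 in XY-sry. The XX and XXsry arrays overlapped, and the XY- and XY-sry arrays were far apart.

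How firmly the 6 calls held differed by gene. Pou2af1, Mzb1 and Irf4 were called with any 1 of the 12 arrays left out, with adjusted p up to 0.0112, 0.0172 and 0.0465. The Ighm call ended without XX replicate 2 or 3, XXsry replicate 2 or 3, XY- replicate 1, or XY-sry replicate 1 or 3 (adjusted p 0.0531 to 0.0695), the Jchain call without XX replicate 2 or 3, XXsry replicate 2 or 3, XY- replicate 1 or 3, or XY-sry replicate 2 or 3 (0.0536 to 0.0972), and the Ms4a1 call without XX replicate 1 or 2, XXsry replicate 2 or 3, XY- replicate 1 or 2, or any XY-sry array (0.0535 to 0.0827). Their differences stayed within -0.62 to -0.47, -0.56 to -0.44 and -0.69 to -0.49. Without XXsry replicate 1 all 6 were called. That array was picked because these genes read high in it, so nothing is read from that count. A fit with an intensity trend and robust settings ended the Ighm and Jchain calls (adjusted p = 0.0624 and 0.0734).

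No gene had every array with Sry below every array without it, a pattern shown by 0.693% of all probe sets. Leaving out each array in turn, a check added after seeing the data, gave 0 or 1 gene for 10 of the 12 arrays, 4 without XY- replicate 2 (1.54% of all probe sets) and 10 without XXsry replicate 1 (1.24%). XXsry replicate 1 and XY- replicate 2 were singled out from these same genes, so their counts are descriptions and nothing is read from them against those shares. Within complements, every XY-sry array was below every XY- array for 14 genes (8% of all probe sets), and every XXsry array was below every XX array for 6 genes (7.39% of all probe sets). The 6 were Blnk, Cd37, Pou2af1, Irf4, Mzb1 and Xbp1. In the other direction, the arrays with Sry were all above those without for Ralgps2 in both complements and for Ly6d in XX. The share of all probe sets was not counted for that direction. Averaged over the 31 genes, each centred on its own mean, the arrays lay at 0.12 to 0.17 in XX, -0.01 to 0.13 in XY-, -0.225 to -0.13 in XY-sry, and 0.115, -0.17 and -0.07 in XXsry replicates 1, 2 and 3.

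**Figure D3:**
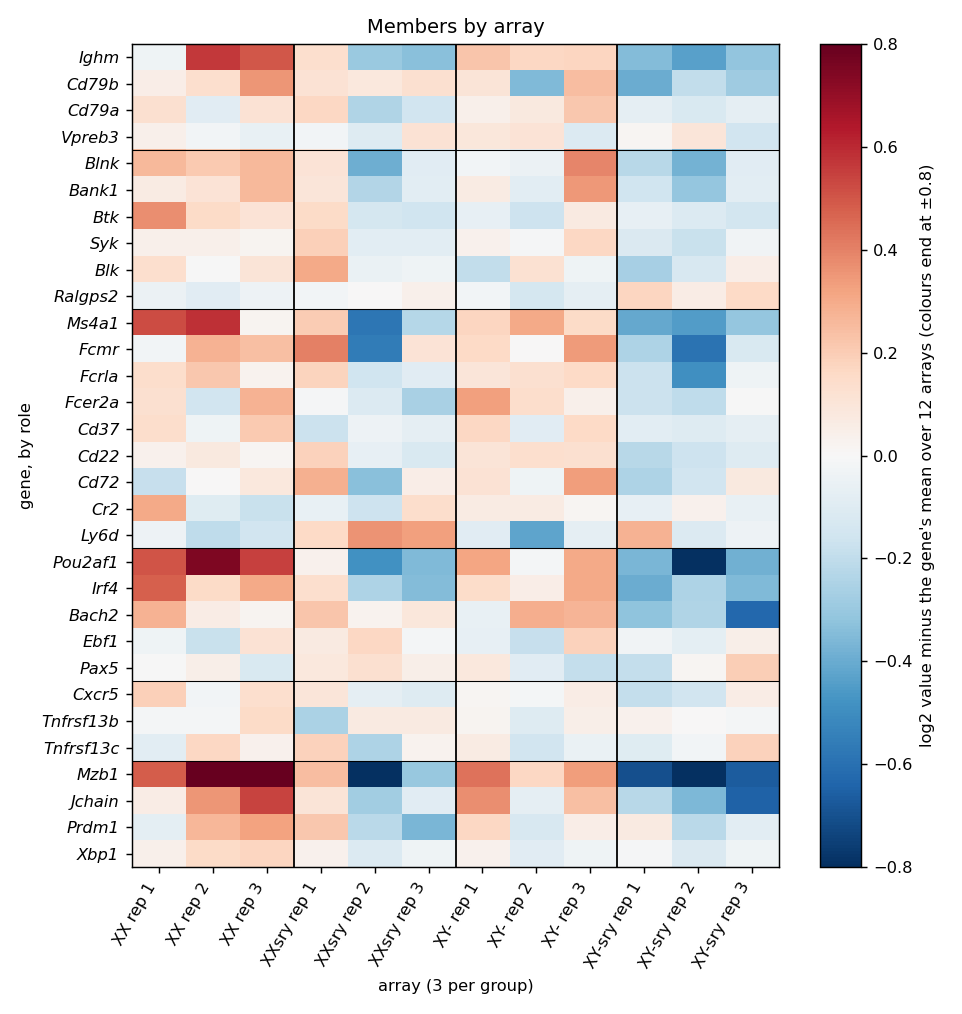
Colour gives each gene's log2 value minus its mean over the 12 arrays (red above, blue below, colour ends at 0.8 either side); rows are the 31 genes by role and columns the arrays by group. Blue columns are XXsry replicate 2 and the XY-sry arrays, XXsry replicate 1 is mostly pale red like most of the arrays without Sry, and the deepest colours are in Mzb1 and Pou2af1.

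Within each complement, the same comparison sets 3 arrays against 3, with the spread estimated from all 12. In XX mice 1 of the 31 genes fell with Sry, Pou2af1 at -0.87 (SE 0.15, adjusted p = 0.0425), where 0.209% of all probe sets were called. Mzb1 gave -1.09 (SE 0.22) with an adjusted p of 0.077. Without XXsry replicate 1, which was picked from these same genes, it was -1.38, given as a description. The Pou2af1 call in XX ended without any 1 of 8 arrays: the 3 of XX, XXsry replicates 2 and 3, XY- replicate 1, and XY-sry replicates 1 and 3, with adjusted p of 0.0528 to 0.193.

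In XY- mice 4 genes fell with Sry, where 2.77% of all probe sets were called. These were Mzb1 at -1.03 (SE 0.22, adjusted p = 0.0273), Pou2af1 at -0.73 (SE 0.15, adjusted p = 0.0249), Bach2 at -0.56 (SE 0.12, adjusted p = 0.0269) and Irf4 at -0.50 (SE 0.12, adjusted p = 0.0454). Jchain, Ighm, Ms4a1 and Cd22 gave -0.59, -0.55, -0.60 and -0.29 with adjusted p between 0.0573 and 0.0889. The Bach2 call rests on 1 of 3 probe sets: the other 2 gave -0.10 and 0.11, and the mean of the 3 gave -0.19 (adjusted p = 0.357). With the spread taken from the 6 arrays of XY- and XY-sry alone, Mzb1 stayed called (adjusted p = 0.0126), while Irf4, Pou2af1 and Bach2 were not (0.0853, 0.098 and 0.127), and Ighm and Ms4a1 were added (0.0451 and 0.0468). With an intensity trend and robust settings Mzb1 was not called (adjusted p = 0.0668). Left out singly, any of the 6 XY- and XY-sry arrays ended the Mzb1 call (adjusted p up to 0.0943). The Pou2af1 call ended without XY- replicate 1 or 3 or any XY-sry array (up to 0.0769), the Bach2 call without XY- replicate 2 or 3 or XY-sry replicate 1 or 3 (up to 0.108), and the Irf4 call without any array but XXsry replicates 1 and 3 (up to 0.151).

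The Sry differences in XX and in XY- share no array. They had the same sign for 27 of the 31 genes, negative in 23 and positive in 4, with a Pearson r of 0.838 across genes, given as a description because genes of the same cells are not independent. Neither value was computed over all probe sets, so whether they are unusual on this array cannot be said. None of the 31 genes passed the test of the difference between them, which 0.375% of all probe sets passed. Unadjusted p was under 0.05 for 2 genes, and for 9.59% of all probe sets. Bach2 had the widest gap, -0.01 in XX and -0.56 in XY-, a difference of 0.56 (SE 0.17, adjusted p = 0.234). Cd22 gave -0.04 and -0.29, a difference of 0.24 (adjusted p = 0.52).

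**Figure D4:**
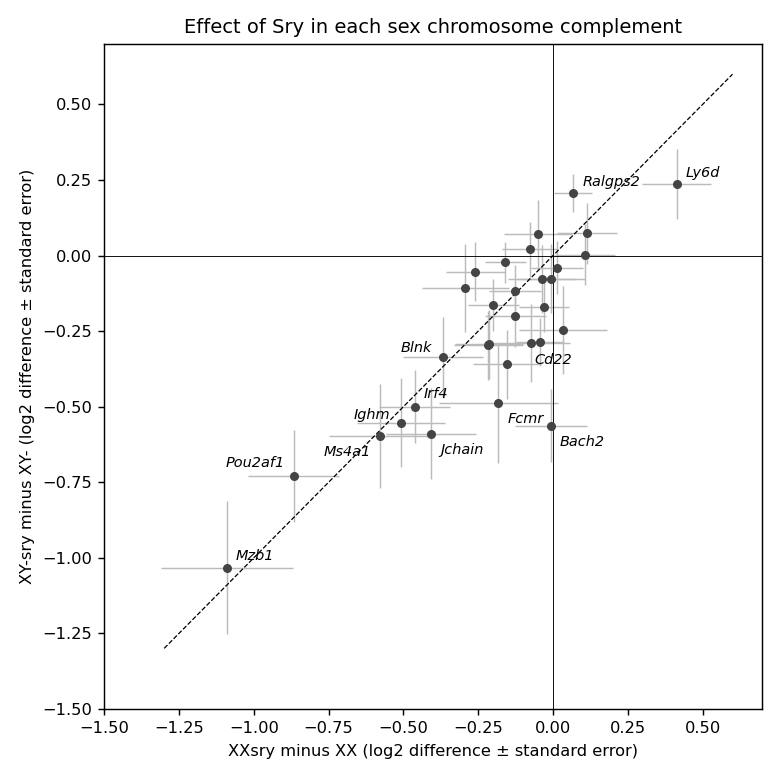
Each point is 1 of the 31 genes, with its log2 difference for Sry in XX (horizontal axis) and in XY- (vertical axis), and standard errors as grey lines; the dashed line marks equal differences. Mzb1 and Pou2af1 lie lowest on both axes near the dashed line, and Bach2 lies near 0 on the horizontal axis and at -0.56 on the vertical one.

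Sex chromosome complement gave no call among these genes. For XX minus XY- averaged over Sry, 0 of 31 passed in limma, and 0.0577% of all probe sets were called. Unadjusted p was under 0.05 for 5 of the 31 and for 4.28% of all probe sets. The estimates were positive for 25 genes, with a median of 0.075 and a range from -0.05 to 0.41. The 5 were Mzb1 at 0.41 (95% interval 0.07 to 0.74), Pou2af1 at 0.33 (0.10 to 0.56), Cd79b at 0.29 (0.09 to 0.49), Bach2 at 0.23 (0.05 to 0.41) and the X-linked Btk at 0.16 (0.01 to 0.31), all with an adjusted p of 0.998.

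Taken apart by Sry, XX against XY- gave 0 calls among the 31, with 0.0533% of all probe sets called; 3 genes, and 7.86% of all probe sets, had an unadjusted p under 0.05. XXsry against XY-sry also gave 0 calls, with 0.0533% of all probe sets called there too; 2 genes, and 6.91% of all probe sets, had an unadjusted p under 0.05. In the latter, Bach2 was 0.51 higher in XXsry (SE 0.12, adjusted p = 0.214) and Cd79b 0.40 higher (SE 0.13, adjusted p = 0.472). Every fit used the same 4 groups, so these values share arrays with the Sry comparisons.

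Genes of other cells and a sign of RNA quality were read beside the B cell and plasma cell genes, and the part of those that moved with Sry in the results above was not tested. Of 12 measured thymocyte genes, which mark the bulk of the tissue, none was called, and their mean centred level ran from -0.03 to 0.07 without Sry and from -0.07 to 0.02 with it. Of 10 interferon-stimulated genes 7 fell, with Cxcl10 at -0.89 (adjusted p = 0.000133) and Cxcl9 at -0.75 (adjusted p = 0.00887), and their mean level separated the arrays, 0.08 to 0.45 without Sry and -0.33 to -0.02 with it. Of 13 dendritic cell genes 2 fell, Bst2 at -0.25 and Cd209a at -0.30. Bst2 is also counted among the 10 interferon-stimulated genes. Of the 13 differences 12 were negative and 1 was positive, that of Tcf4, which read 7.62 without Sry and 7.75 with it. Siglech, a marker of plasmacytoid dendritic cells, which share several of the genes studied here, read 4.58 without Sry and 4.55 with it, a mean under 5. None of 12 macrophage genes was called for Sry averaged over complement, with a median of -0.17. Of these differences 11 were negative and 1 positive, and 5 had an unadjusted p under 0.05, as had 15% of all probe sets. In XY- mice 1 macrophage gene was called lower in limma (adjusted p = 0.0298). Of 8 neutrophil genes 1 fell, Elane at -0.295, with a median of -0.66 and mean levels of -0.09 to 1.10 without Sry and -0.84 to 0.10 with it. Among 6 lymph node and stromal genes, a check for lymph node tissue taken with the thymus, none was called, with a median of -0.07. All 6 differences were negative, 2 had an unadjusted p under 0.05, and the smallest adjusted p was 0.0547. Glycam1 read 2.78 without Sry and 2.77 with it, a mean under 5. Only Ltb had a mean of at least 5, and it read 9.74 without Sry and 9.51 with it.

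Of 8 genes of cortical epithelium, 2 rose with Sry, Il7 at 0.445 and Dll4 at 0.27, and none of 8 genes of medullary epithelium was called. Of these 8, 7 had a negative difference and 4 an unadjusted p under 0.05, with a median of -0.11 and a smallest adjusted p of 0.0524. Their mean level was -0.001 to 0.25 without Sry and -0.11 to 0.03 with it. The 3′ to 5′ difference of the actin control probe sets, a sign of RNA degradation, was 0.66 to 0.77 in XX, 0.71 to 0.76 in XXsry, 0.51 to 0.69 in XY- and 0.74 to 0.83 in XY-sry. It therefore moved with Sry among the XY- groups. With it as a covariate, Mzb1, Pou2af1 and Irf4 were still called for Sry averaged over complement, and Cd37 was added at -0.30 (adjusted p = 0.0336). Ighm, Jchain and Ms4a1 were not called (adjusted p = 0.129, 0.072 and 0.19), at differences of -0.48, -0.59 and -0.45 against -0.53, -0.50 and -0.59 without the covariate. In XY- mice none of the 31 was called with it. The differences there were -1.001 for Mzb1, -0.90 for Pou2af1, -0.60 for Irf4 and -0.42 for Bach2 (adjusted p = 0.309, 0.187, 0.252 and 0.404), against -1.03, -0.73, -0.50 and -0.56 without it.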

How the data were processed

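Total RNA from frozen thymus, 10 µg per array, was labelled as biotin cRNA and hybridised to 12 one-colour Affymetrix arrays, per the labels. The deposited table holds log2 summaries, 1 per probe set and array; the submitters' processing notes name RMA, with no version. RMA normalises all arrays together, so only differences of 1 probe set between arrays are compared.

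The table lists 45101 probe sets, and the 45037 that are not controls were tested; 34945 named 1 gene, 932 several and 9160 none. The members and gene lists were chosen with earlier results of these data known. A model of the 4 group means was fitted with limma 3.58.1 in R 4.3.3 (lmFit, contrasts, eBayes; 8 residual and 5.02 prior degrees of freedom) and adjusted by Benjamini-Hochberg. Values in every array are given for Cd79a, Ms4a1, Ighm, Jchain and each member called in any of 7 contrasts; of 3 further lists, the genes called, or else the 2 with the smallest p, are named. On simulated data with 200 changed probe sets, the averaged Sry contrast recovered 32.5% at a log2 difference of 0.3, 84% at 0.5 and 99% at 1, with 1 of 66, 5 of 173 and 9 of 207 calls false.

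Replicate numbers did not pair arrays: residuals of same-numbered arrays correlated at a median of 0.0413 (-0.0827 to 0.306) over 18 pairs, and others at -0.0216. The number of arrays limits the precision; the median standard error over the members was 0.081 for Sry averaged over complement. Alternatives changed the filter, scaling, model, probe set rule, threshold and arrays used. Figures were drawn with matplotlib 3.10.9.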

Additional observations from a re-analysis of the deposited data

Results flagged for a closer look

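Ccr6, a chemokine receptor carried by B cells and other cells, was the 1 gene named here whose Sry difference passed the test between complements. Its log2 difference for Sry was 0.06 in XX and -1.21 in XY- (adjusted p = 0.00282), and the first minus the second was 1.27 (SE 0.20, adjusted p = 0.0296 in limma). The call between complements ended under 10 of 23 alternatives, 8 of them leaving out 1 array: any of the 6 XX and XXsry arrays, or XY-sry replicate 1 or 3 (adjusted p 0.0636 to 0.108). With 1 probe set per gene the adjusted p was 0.0576 and with the actin covariate 0.362, and the difference between complements stayed between 0.97 and 1.41. The actin covariate also ended the Ccr6 call in XY-, at -0.91 (adjusted p = 0.135), and that averaged over complement, at -0.43 (adjusted p = 0.119).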

How the results depend on the processing

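Under 25 alternatives, no gene called in the main fit changed direction in the contrast that called it, wherever it was tested. Of 172 recounts of called B cell and plasma cell genes, 145 stayed within 1.5 times the main count, 19 gave fewer and 8 more. The 145 include every complement and interaction recount, which stayed at 0, so all the changed counts were for Sry contrasts. All 172 medians moved by less than the spread between replicates. That margin is loose beside medians as small as 0.075 for complement, so it does not show that their signs held. For Sry averaged over complement (6 calls), leaving out 1 array gave 3 to 6, with Mzb1, Pou2af1 and Irf4 kept each time; a mean of at least 5 gave 8, of which 2 were higher. For Sry in XX (1 call), a mean of at least 6, array weights and an adjusted p under 0.1 each gave 2, and leaving out 1 array 0 to 2. For Sry in XY- (4 calls), a mean of at least 5 gave 8 and a mean of at least 6 gave 7. Both included Ralgps2 called higher (adjusted p = 0.0321 and 0.0244), as did the intensity trend and robust settings (0.0439). An adjusted p under 0.1 gave 8. The actin covariate gave 0 (differences of -1.001 for Mzb1, -0.90 for Pou2af1, -0.60 for Irf4 and -0.42 for Bach2). Leaving out 1 array gave 0 to 7: 7 without XXsry replicate 1, 0 without XY- replicate 3, XY-sry replicate 1 or XY-sry replicate 3. XXsry replicate 1 was picked from these same genes, so nothing is read from the 7. Why the counts changed with the filters, the weights, the covariate or the array left out was not tested. Complement and interaction gave 0 calls under every alternative. With the replicate block, the averaged Sry contrast gave 7 calls, adding Blnk (adjusted p = 0.0457), and the counts in XX and XY- were 1 and 4, so pairing by number added 1 gene. In the simulation of the averaged Sry contrast, log2 differences near 0.3 were mostly missed (32.5% recovered). The contrasts of 3 arrays against 3 were not simulated, and noise was drawn separately for each probe set.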
